A study of Homo sapiens with 18 samples.

Results

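HPRT1, TFRC, TBP, B2M, GUSB, PPIA, YWHAZ and POLR2A, which laboratories commonly use to normalize RNA measurements, were followed through an NRF1 knockdown and rescue experiment. They were taken by symbol from the gene table, where each symbol matched 1 row, so the 8 genes are 8 of 58870 rows and 8 of the 17962 genes with enough counts to be tested. The measurements were poly(A) RNA-Seq of the human embryonic kidney line HEK293 Flp-In, which carries a site for inserting a transgene. In 6 conditions with 3 libraries each, cells received siNRF1 (an siRNA against NRF1) or siNT (a non-targeting siRNA). Each siRNA was given to cells with no transgene, to cells of the NRF1-FL line (full-length NRF1) and to cells of the NRF1-ΔE7 line (NRF1 without exon 7, NRF1-DE7 in the labels). Both transgenes are resistant to the siRNA and induced by doxycycline, and the labels give doxycycline in all 6 conditions. They place its addition 24 h after transfection, and the study's methods give an earlier time. A single siRNA sequence was used, so in cells without a transgene loss of NRF1 cannot be told apart from other effects of that siRNA. The NRF1-FL line gives the siRNA response with resistant full-length NRF1 present. Each rescue came from 1 stable line, so an isoform cannot be told apart from its line. The labels number the replicates without saying whether cultures were separate. The p-values therefore cover the spread among these libraries, which may be technical. Where 3 values are given in a row for the sets of cells, they are in the order no transgene, NRF1-FL line, NRF1-ΔE7 line.

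A reference gene is meant to hold a constant level so that another transcript can be expressed as a ratio to it. The genes are drawn from unrelated processes for this reason. HPRT1 recycles purine bases, TFRC is the transferrin receptor that brings iron into the cell, B2M is the light chain of MHC class I molecules, and GUSB is a lysosomal hydrolase that removes glucuronic acid from glycosaminoglycans. PPIA is cyclophilin A, a prolyl isomerase and the target of cyclosporin, and YWHAZ is a 14-3-3 adaptor that binds phosphorylated proteins. TBP binds the TATA box within TFIID, and POLR2A is the catalytic subunit of RNA polymerase II. Many housekeeping promoters hold the GC-rich palindrome to which the transcription factor NRF1 (nuclear respiratory factor 1) binds. No reference gene is independent of library scaling either, because in sequencing data the library total, or a factor computed from many genes, takes the part that the reference gene plays in qRT-PCR.

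The promoters show what sequence lay before a gene that fell, a gene that moved little with TMM scaling and a gene that rose. Promoter windows of 250 bases before to 50 bases after the start were found in RefSeq (GRCh38.p14) for 7 of the 8 genes, and 3 are printed, with GC boxes (GGGCGG) and the NRF1 half-site (TGCGCA) in capitals on either strand.
HPRT1, which fell, chrX:134459915-134460214, plus strand: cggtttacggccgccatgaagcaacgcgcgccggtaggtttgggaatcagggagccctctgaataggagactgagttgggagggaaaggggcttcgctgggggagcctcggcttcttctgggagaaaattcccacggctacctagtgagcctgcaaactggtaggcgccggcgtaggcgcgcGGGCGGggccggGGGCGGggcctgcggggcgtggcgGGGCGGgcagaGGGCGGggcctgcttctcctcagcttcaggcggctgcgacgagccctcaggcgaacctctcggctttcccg
TBP, which moved least with TMM, chr6:170554119-170554418, plus strand: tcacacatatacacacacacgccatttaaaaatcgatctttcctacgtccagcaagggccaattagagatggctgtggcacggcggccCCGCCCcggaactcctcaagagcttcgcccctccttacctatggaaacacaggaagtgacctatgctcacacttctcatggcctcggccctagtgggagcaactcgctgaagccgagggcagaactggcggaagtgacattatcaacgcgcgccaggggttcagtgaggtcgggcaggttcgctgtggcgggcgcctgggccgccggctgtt
POLR2A, which rose, chr17:7484116-7484415, plus strand: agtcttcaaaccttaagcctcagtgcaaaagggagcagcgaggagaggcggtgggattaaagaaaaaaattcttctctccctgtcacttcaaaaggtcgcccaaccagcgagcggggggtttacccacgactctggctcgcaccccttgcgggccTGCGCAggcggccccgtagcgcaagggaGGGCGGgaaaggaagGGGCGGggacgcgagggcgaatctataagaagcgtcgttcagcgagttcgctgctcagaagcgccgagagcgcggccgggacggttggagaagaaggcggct

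The NRF1 palindrome CGCATGCG was in none of the 7 windows, and 2.19% of 27305 promoters of the same length hold it. The half-site TGCGCA was in the POLR2A window alone, against 8.42% of all promoters. GC boxes, which Sp1 family factors bind, numbered 4 each in the HPRT1 and PPIA windows, 3 in TFRC, 2 each in GUSB and POLR2A, 1 in TBP and 0 in B2M, and 44.6% of all promoters hold at least 1. The ETS motif GGAAGTG occurred 2 times in the TBP window and 1 time in the TFRC window, against 11.5% of all promoters. These letters are a description of the windows and mark no binding site.

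The siRNA is the other sequence that bears on these genes, since a guide can also bind transcripts that pair with its seed. The guide strand, here taken as the reverse complement of the strand that the study lists, is shown with its seed (bases 2 to 8) in capitals, and the strand that the study lists matched the NRF1 transcript.
NRF1 siRNA guide: aGAUACAGaggacaauagc
A 7-base match to the seed, CTGTATC, was present in the 3′ UTR of the canonical GENCODE v44 transcript for 11.1% of 13679 tested genes. Of the reference genes TFRC had 1 match, beginning at base 1404 of its 3′ UTR.
TFRC 3′ UTR site: accacagtgtCTGTATCggagacagtg
HPRT1, TBP, B2M, GUSB, PPIA and YWHAZ had 0 matches, and the canonical POLR2A transcript has no annotated 3′ UTR.

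Library totals ran from 31.2 to 44.8 M counts and TMM factors (trimmed mean of M values, a scaling computed from most genes) from 0.944 to 1.07. All 8 genes were well counted, from 989 counts of TBP in its lowest library to 60153 of PPIA in its highest. NRF1 itself had 7.19, 9.25 and 7.70 CPM (counts per M counts of the TMM-scaled library) in siNRF1 cells without a transgene, against 31.1, 29.9 and 29.3 CPM in siNT cells, so the knockdown followed its labels. Vimentin, KRT8 and KRT18 were strongly expressed in all libraries (VIM 1310 to 1710 CPM), as HEK293 cells are known to have. The kidney developmental genes PAX2 (3.28 to 6.96 CPM), LHX1 (2.7 to 7.55 CPM) and EYA1 (10.3 to 23.5 CPM) were present at low levels. NEFM, the other gene listed for HEK293 cells, had 0.922 to 2.32 CPM, not far above the endothelial gene VWF (at most 0.977 CPM). Defining markers of blood, endothelium and fibroblasts were at or near 0, with PTPRC at most 0.252 CPM, PECAM1 at most 0.0708 CPM and COL1A2 at most 0.0297 CPM, although COL1A1 had 9.62 to 14.2 CPM. Of 5 basal epithelial markers 4 were tested, and in siNRF1 cells without a transgene KRT5, KRT6A and TP63 were higher and KRT17 lower (log2 fold-change -1.04, adjusted p = 1e-05). The sum over all 5, which in siNT cells was mostly KRT17 (4.07 to 4.68 CPM), ran from 1.96 to 19.7 CPM in siNRF1 cells without a transgene, against 4.12 to 4.74 CPM in siNT cells. KRT5 had the highest of these levels, with 12.6 CPM in replicate 3, 2.02 CPM in replicate 1 and 0 CPM in replicate 2. Without that replicate 3 library all 8 log2 fold-changes without a transgene kept their calls.

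Per length of the canonical transcript, the 8 genes covered a wide range of abundance and their order differed between the siRNAs. In siNRF1 cells without a transgene the means per kb were 521 CPM for PPIA, 144 for YWHAZ, 140 for B2M, 107 for POLR2A, 67.5 for HPRT1, 24.6 for TFRC, 16.5 for TBP and 16.3 for GUSB. In siNT cells without a transgene they were 656 CPM per kb for PPIA, 232 for B2M, 170 for YWHAZ, 138 for HPRT1, 73.0 for POLR2A, 54.7 for TFRC, 27.5 for GUSB and 18.5 for TBP. YWHAZ (140 to 150) and B2M (139 to 142) overlapped in siNRF1 cells, as did TBP and GUSB, whereas no neighbours in the siNT order overlapped. POLR2A stood below HPRT1 in siNT cells and above it in siNRF1 cells.

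**Figure D1:**
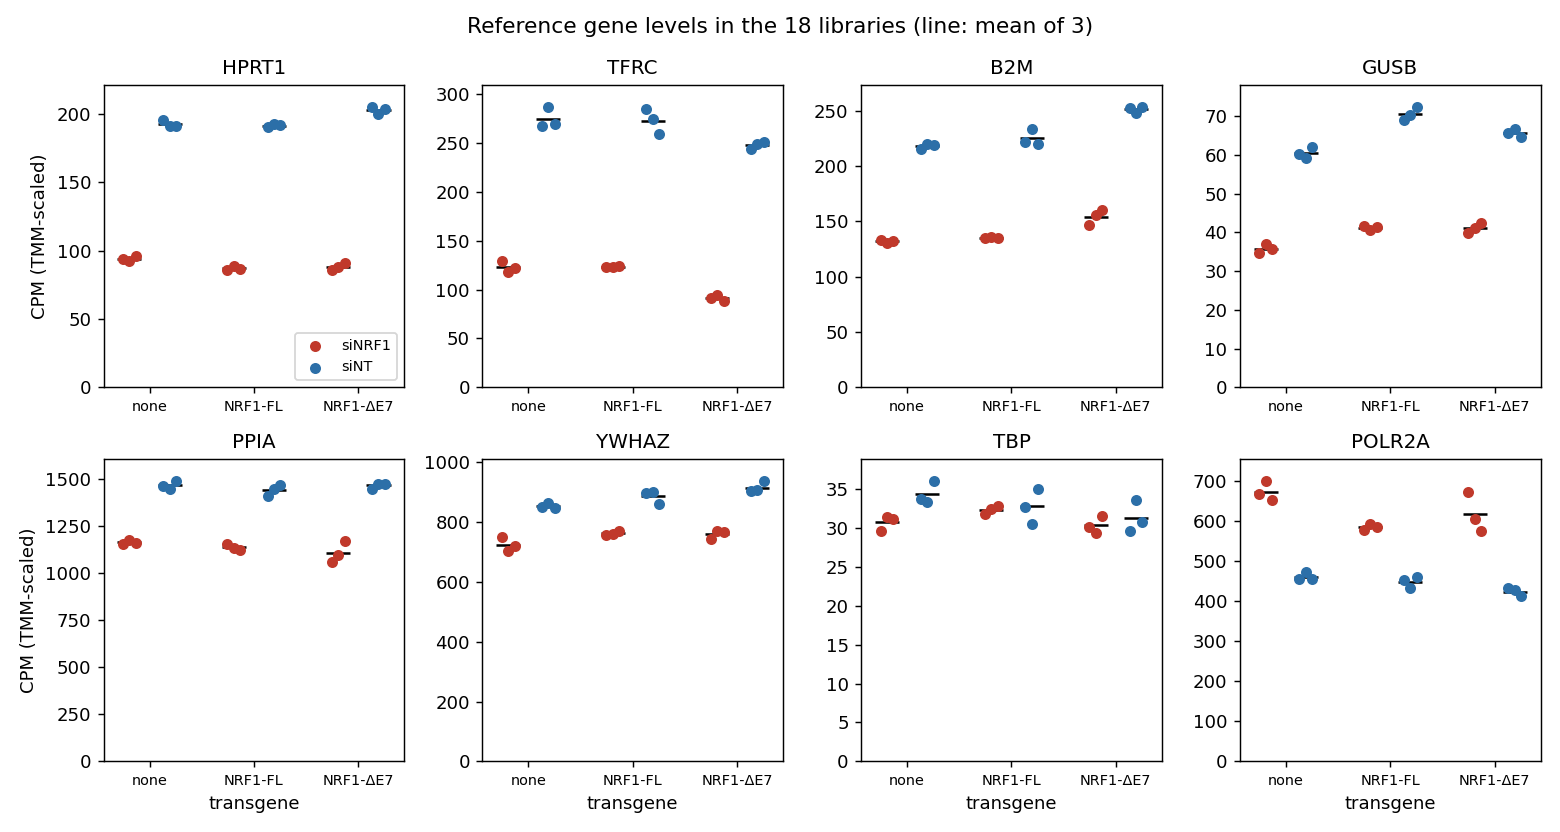
Level of each reference gene in CPM (TMM-scaled, linear axis from 0) in every library, by transgene, with siNRF1 in red left of siNT in blue and the mean of 3 libraries as a line. HPRT1, TFRC, B2M, GUSB, PPIA and YWHAZ were lower and POLR2A higher with siNRF1 in all 3 lines, whereas the TBP points overlap in both rescue lines.

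Under siNRF1 the reference genes did not behave as constants. Without a transgene, 7 of the 8 were lower and 1 was higher than with siNT at an adjusted p under 0.05, in a transcriptome in which 32.4% of the genes tested were lower and 32.1% higher. In the NRF1-FL line 6 were lower and 1 higher (31.3% and 32.2% of all genes), and in the NRF1-ΔE7 line 6 were lower and 1 higher (33.6% and 34.5%). With an absolute log2 fold-change above 0.5 required as well, 5, 4 and 5 of the 8 were called, against 28.9%, 27.1% and 32.8% of all genes. The median log2 fold-change of the 8 was -0.53, -0.54 and -0.54, where all genes had medians of 0.01, 0.02 and 0.02. In a pool of cells, fewer cells of a kind and less RNA per cell cannot be told apart.

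HPRT1 and TFRC had the largest shifts. HPRT1 (ENSG00000165704, chrX:134460165-134500668, hg38, as are all positions here) had 94.2, 92.2 and 96.0 CPM in siNRF1 cells without a transgene, against 196, 191 and 191 CPM in siNT cells. In the NRF1-FL line it had 85.8, 88.9 and 86.2 CPM with siNRF1, against 190.1, 192.5 and 192 CPM with siNT. The siNRF1 libraries were far below all siNT libraries in both, with log2 fold-changes of -1.03 ± 0.03 (SE, adjusted p = 2.5e-19) and -1.14 ± 0.03 (adjusted p = 5.7e-20) by edgeR's quasi-likelihood test with Benjamini-Hochberg adjustment, which gave every adjusted p in the text unless another tool is named. In the NRF1-ΔE7 line HPRT1 had 85.5, 88.2 and 90.8 CPM with siNRF1, against 205, 199.9 and 204 CPM with siNT (log2 fold-change -1.20 ± 0.03, adjusted p = 1.1e-20). HPRT1 was thus at less than its siNT level in every siNRF1 library, with either rescue transgene or without one.

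TFRC (ENSG00000072274, chr3:196049284-196082090), whose mRNA level cells adjust to their iron supply, had 129, 118 and 122 CPM in siNRF1 cells without a transgene, against 267, 286 and 269 CPM in siNT cells. The log2 fold-change was -1.15 ± 0.04 (adjusted p = 7.4e-18). In the NRF1-FL line TFRC had 123.2, 123.0 and 123.7 CPM with siNRF1, against 284, 274.5 and 259 CPM with siNT, a log2 fold-change of -1.14 ± 0.04 (adjusted p = 9.4e-18). The TFRC response with full-length NRF1 differed from that without a transgene by 0.01 (95% interval -0.10 to 0.12). With the NRF1-ΔE7 transgene it had 91.2, 94.55 and 87.8 CPM with siNRF1, against 243.5, 249 and 251 CPM with siNT, a log2 fold-change of -1.44 ± 0.04 (adjusted p = 1.2e-19). These were the lowest 3 of the 18 TFRC values. The same siRNA was given to all 3 sets of cells. Among the reference genes whose canonical transcript has an annotated 3′ UTR, TFRC alone had a match to the guide seed printed above. The part of that match in the TFRC values was not tested.

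B2M and GUSB moved by similar amounts. B2M (ENSG00000166710, chr15:44711517-44718145) had 133.5, 131 and 132 CPM in siNRF1 cells without a transgene, against 216, 219.9 and 219 CPM in siNT cells. It had 135.0, 135.8 and 135.4 CPM with siNRF1, against 222, 233 and 220.1 CPM with siNT, in the NRF1-FL line. No siNRF1 library reached the level of a siNT library in either set of cells. In the NRF1-ΔE7 line the values were 147, 155 and 160.0 CPM with siNRF1, against 253, 248 and 253 CPM with siNT. The B2M log2 fold-changes were -0.72, -0.73 and -0.70 (SE 0.03 each, adjusted p at most 6.1e-16).

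GUSB (ENSG00000169919, chr7:65960684-65982213) had 34.7, 36.9 and 35.8 CPM in siNRF1 cells without a transgene, against 60.3, 59.2 and 61.9 CPM in siNT cells. It had 41.6, 40.7 and 41.4 CPM with siNRF1, against 69.1, 70.4 and 72.3 CPM with siNT, in the NRF1-FL line. With the NRF1-ΔE7 transgene it had 39.8, 41.1 and 42.3 CPM with siNRF1, against 65.75, 66.7 and 64.6 CPM with siNT. GUSB was lower in all 3 sets of cells, with log2 fold-changes of -0.76, -0.78 and -0.68 (SE 0.03 each, adjusted p at most 1.7e-14). This size is uncertain, because 8 of 11 GUSB pseudogenes, which carry near-identical copies of parts of GUSB, had counts of their own, in sum 25.1% to 91.8% of the GUSB counts of a library. GUSBP11 was higher with siNRF1 by 0.57, 0.58 and 0.88 on the log2 scale (adjusted p = 9.2e-06, 8.4e-06 and 1.6e-08) and GUSBP1 by 0.22, 0.26 and 0.39 (adjusted p = 0.042, 0.013 and 0.00069). With the copies' counts added to GUSB, its shift was -0.32, -0.38 and -0.25 in mean log2 values. How the counting split reads between GUSB and its copies was not tested.

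PPIA and YWHAZ fell by small amounts that were still well above the replicate spread. PPIA (ENSG00000196262, chr7:44796681-44803117) had 1157, 1179 and 1161 CPM in siNRF1 cells without a transgene, against 1465, 1448 and 1489 CPM in siNT cells. It had 1158, 1137 and 1125 CPM with siNRF1, against 1413, 1448 and 1468 CPM with siNT, in the NRF1-FL line. The 2 sets did not overlap in either. In the NRF1-ΔE7 line it had 1062, 1096 and 1172 CPM with siNRF1, against 1449, 1477 and 1477 CPM with siNT, and the log2 fold-changes were -0.33, -0.34 and -0.40 (SE 0.03 each, adjusted p at most 3.1e-10). PPIA has 95 named pseudogenes, but their counts came to 3.24% to 3.92% of its own and adding them left the shifts at -0.33, -0.34 and -0.40.

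YWHAZ (ENSG00000164924, chr8:100916523-100952020) had 749, 703 and 718 CPM in siNRF1 cells without a transgene, against 848.5, 863 and 847 CPM in siNT cells. It had 755, 758 and 769.8 CPM with siNRF1, against 896, 899 and 859 CPM with siNT, in the NRF1-FL line. With the NRF1-ΔE7 transgene the values were 743, 769 and 767 CPM with siNRF1, against 902, 905 and 934.5 CPM with siNT. The groups did not overlap, although the shifts were small, with log2 fold-changes of -0.24, -0.22 and -0.27 (SE 0.03 each, adjusted p at most 1.4e-07). Its 8 pseudogenes held at most 0.139% of its counts.

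TBP (ENSG00000112592, chr6:170554369-170572859) was the gene that moved least with TMM. It had 29.65, 31.4 and 31.1 CPM in siNRF1 cells without a transgene, against 33.7, 33.25 and 36.0 CPM in siNT cells. These groups did not overlap, and the log2 fold-change was -0.16 ± 0.05 (adjusted p = 0.0092), a call that was lost without siNT replicate 3 (log2 fold-change -0.13, adjusted p = 0.063) and under 4 of 6 scalings. In the NRF1-FL line TBP had 31.8, 32.45 and 32.8 CPM with siNRF1, against 32.7, 30.5 and 35.0 CPM with siNT (log2 fold-change -0.02, 95% interval -0.13 to 0.09, adjusted p = 0.76). In the NRF1-ΔE7 line it had 30.15, 29.4 and 31.6 CPM with siNRF1, against 29.6, 33.6 and 30.75 CPM with siNT (log2 fold-change -0.04, 95% interval -0.15 to 0.06, adjusted p = 0.48). The groups overlapped in both rescue lines, and the intervals of the difference were narrow.

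POLR2A (ENSG00000181222, chr17:7484366-7514179) was the only one of the 8 that rose. It had 667, 699 and 651.5 CPM in siNRF1 cells without a transgene, against 455, 472 and 456 CPM in siNT cells. It had 578, 591 and 584 CPM with siNRF1, against 453, 433 and 461 CPM with siNT, in the NRF1-FL line. All siNRF1 libraries were above all siNT libraries. With the NRF1-ΔE7 transgene it had 672, 604 and 574 CPM with siNRF1, against 432, 427 and 412 CPM with siNT, where replicate 1 stood above the others with siNRF1. The log2 fold-changes were 0.54, 0.38 and 0.54 (SE 0.04 each, adjusted p = 4.2e-11, 2.0e-08 and 3.9e-11).

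Whether a gene stays flat depends on what the libraries are scaled to, so the siRNA response was refitted under 6 scalings. These were TMM, RLE (the median ratio that DESeq2 uses), the upper quartile, the library total, the geometric mean of 26 other genes used as qPCR references, and GAPDH, to which the original qRT-PCR was normalized. GAPDH is also 1 of the 26 genes, and it was itself lower with siNRF1 by TMM. Its means were 2973, 2894 and 2890 CPM with siNRF1, against 3419, 3433 and 3480 CPM with siNT. Its log2 fold-change was -0.20 without a transgene (adjusted p = 4.3e-07) and -0.25 in the NRF1-FL line (adjusted p = 1.9e-08). A gene was called flat where the whole 95% interval of its log2 fold-change lay within 0.25 of 0. Against TMM, which put the median of all genes at 0.01 to 0.02, the upper quartile put it at 0.09 to 0.12, library totals at 0.14 to 0.18, the 26 genes at 0.16 to 0.20 and GAPDH at 0.21 to 0.29. Without a transgene TMM gave 5822 genes lower and 5761 higher, whereas library totals gave 4336 lower and 7607 higher and GAPDH 3524 lower and 8425 higher. The 8 reference genes moved upward with the rest.

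**Figure D2:**
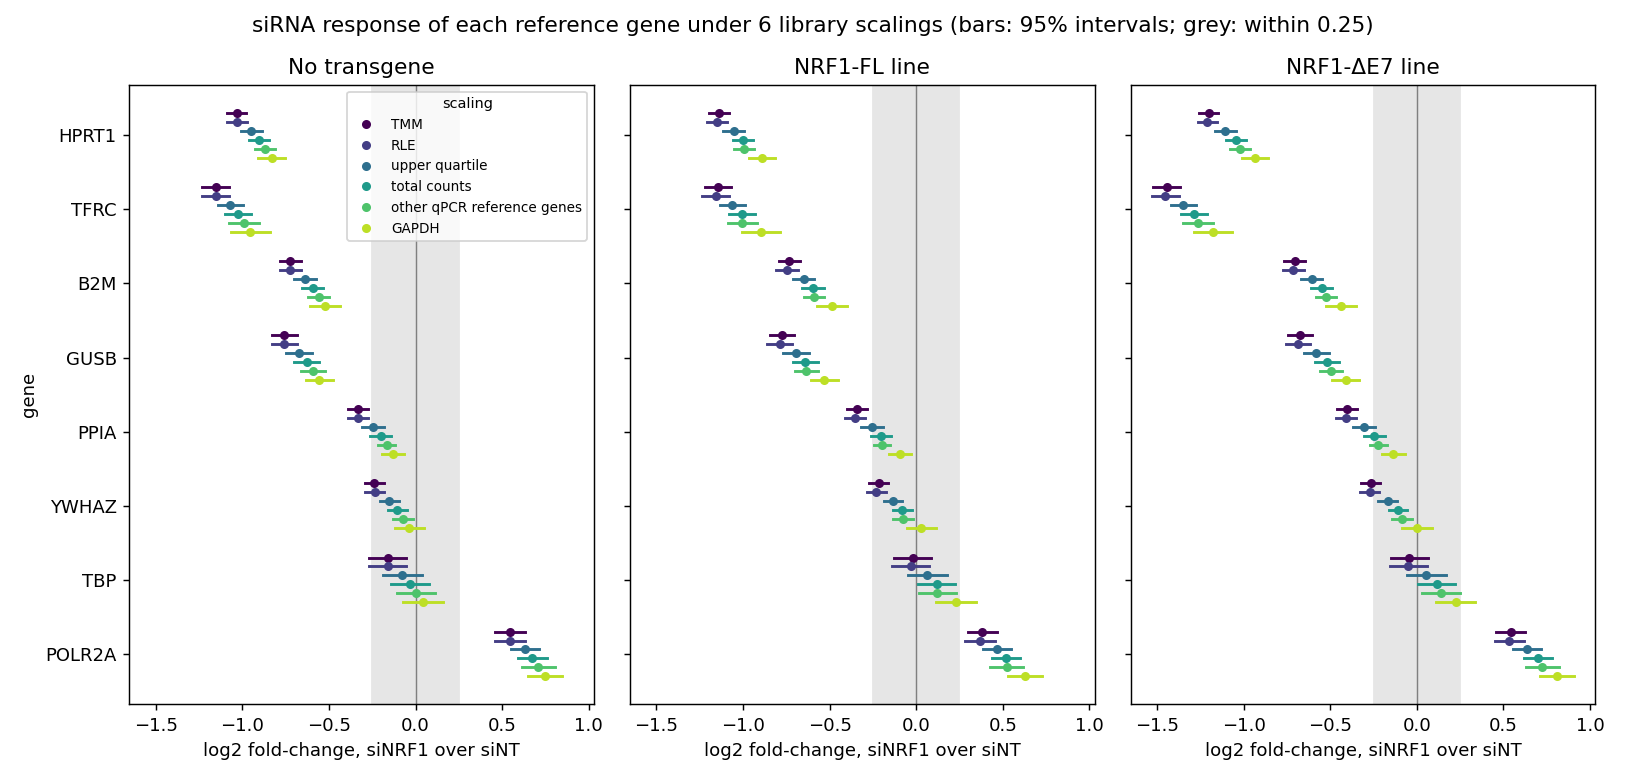
Log2 fold-change of siNRF1 over siNT for each reference gene (rows) in the 3 lines (panels) under 6 library scalings (colours), with 95% intervals as bars and the flat range of 0.25 either side of 0 in grey. HPRT1, TFRC, B2M and GUSB lie left of the grey band and POLR2A right of it under every scaling, and TBP and YWHAZ are inside it under 14 and 12 of the 18 fits.

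With TMM, 0 of the 8 genes were flat without a transgene (18.2% of all genes were), and TBP alone was flat with NRF1-FL (19.3%) or NRF1-ΔE7 (16.4%). Over the 18 fits of 6 scalings and 3 lines, TBP was flat in 14, YWHAZ in 12 and PPIA in 5. HPRT1, TFRC, B2M, GUSB and POLR2A were flat in 0 of 18. None of the 8 was flat in all 18 fits, and 157 of the 17962 genes (0.874%) were, among them the listed genes ACTB, NONO, YWHAG and HEXA. With GAPDH and the 26 genes left out of the scalings, 786 genes (4.38%) were flat in every line, and again none of the 8.

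The direction was stable for 6 of the 8 genes under the 6 scalings. HPRT1 ran from -1.21 to -0.83 over the 18 fits, TFRC from -1.45 to -0.90, B2M from -0.75 to -0.44, GUSB from -0.79 to -0.41 and PPIA from -0.41 to -0.09, and each was lower with an adjusted p under 0.05 in 18 of 18. POLR2A ran from 0.37 to 0.81 and was higher in 18 of 18. The share of all genes called in the same direction in all 18 fits was not counted. YWHAZ ran from -0.27 to 0.03, was lower in 15 fits and did not pass in the 3 scaled to GAPDH. TBP ran from -0.16 to 0.23, was lower in 2 fits and higher in 4, so its direction flipped with the scaling.

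Ratios between genes need no scaling, because both counts come from the same library. Of the 28 pairs of reference genes, 4 kept their log2 ratio within 0.25 between siNRF1 and siNT in all 3 lines. PPIA and YWHAZ held together best (SD of the log2 ratio 0.0905 over 18 libraries), with shifts of -0.09, -0.12 and -0.14. Even so, the siNRF1 and siNT ratios of this pair overlapped in none of the 3 lines, as for 25 of the 28 pairs. Pairs of other genes were not counted, so neither count of pairs can be called particular to reference genes. B2M and GUSB came next (SD 0.107), with shifts of 0.03, 0.04 and -0.03, and were the one pair whose siNRF1 and siNT ratios overlapped in all 3 lines. With the GUSB pseudogene counts added to GUSB, however, the shifts of this pair were -0.40, -0.36 and -0.46 and the ratios overlapped in none of the lines. The others were TBP with YWHAZ (0.08, 0.20 and 0.22) and HPRT1 with TFRC (0.12, 0.01 and 0.24). Both genes of the HPRT1 and TFRC pair fell, so their steady ratio went with a fall of each.

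**Figure D3:**
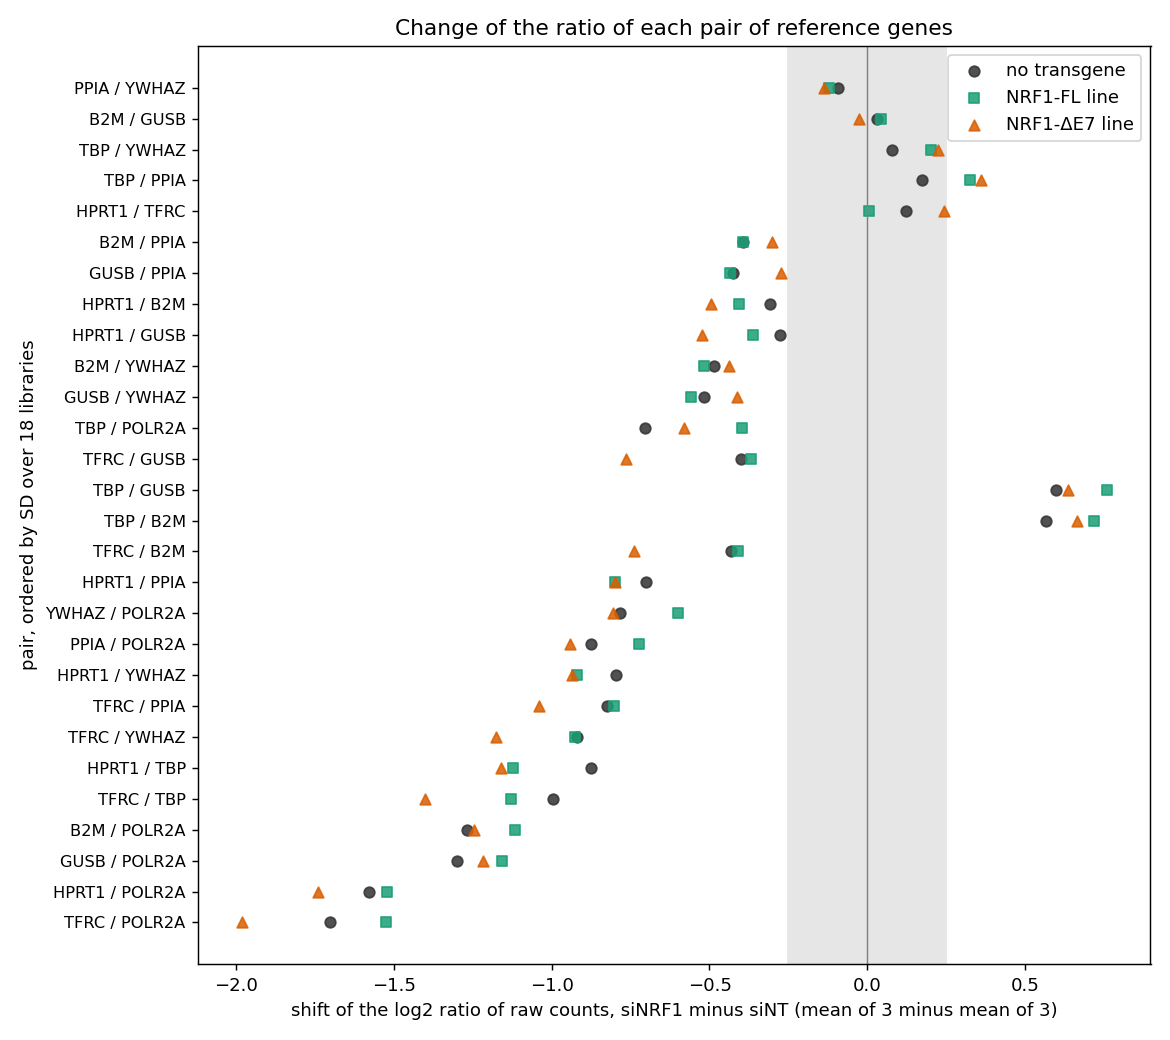
Shift of the log2 ratio of raw counts between siNRF1 and siNT (mean of 3 libraries minus mean of 3) for each of the 28 pairs of reference genes, ordered from the smallest SD over 18 libraries at the top, with 1 marker per line and the range of 0.25 either side of 0 in grey. PPIA/YWHAZ, B2M/GUSB, TBP/YWHAZ and HPRT1/TFRC have all 3 markers in the grey range, and TFRC/POLR2A at the bottom reaches -1.98.

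TFRC and POLR2A formed the least steady pair (SD 0.908), with shifts of -1.70, -1.53 and -1.98. Averaged over its 7 partners, the SD of the log2 ratio was 0.289 for PPIA, 0.308 for YWHAZ, 0.313 for B2M, 0.314 for GUSB, 0.359 for TBP, 0.413 for HPRT1, 0.494 for TFRC and 0.598 for POLR2A. Genes that move together keep a steady ratio, so these averages do not measure a constant level. B2M and GUSB, flat in 0 of 18 fits, had lower averages than TBP, which was flat in 14. Within the 9 siNRF1 libraries alone these averages ran from 0.111 to 0.243, and within the 9 siNT libraries from 0.0800 to 0.123. The ratios thus varied less among libraries of the same siRNA than over all 18. With pseudogene counts added 5 pairs were within 0.25 in all 3 lines. These were PPIA with YWHAZ, TBP with YWHAZ and HPRT1 with TFRC as before, and GUSB with PPIA and with YWHAZ in place of B2M with GUSB. With the counts of the genes alone and siNRF1+NRF1-ΔE7 replicate 2 left out, there were 2 such pairs in place of 4.

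The choice of reference gene set the size of the NRF1 difference between the siRNAs and, in the rescue lines, its sign. In cells without a transgene the log2 difference of NRF1 was -0.75 relative to TFRC, -0.88 relative to HPRT1, -1.15 relative to GUSB and -1.19 relative to B2M. It was -1.58 relative to PPIA, -1.67 relative to YWHAZ, -1.75 relative to TBP and -2.46 relative to POLR2A, while GAPDH gave -1.71. The ratio of NRF1 in siNRF1 cells to that in siNT cells was therefore 0.593 with TFRC and 0.182 with POLR2A, from the same libraries. By TMM the log2 fold-change was -1.92 ± 0.06 (adjusted p = 5.9e-18).

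**Figure D4:**
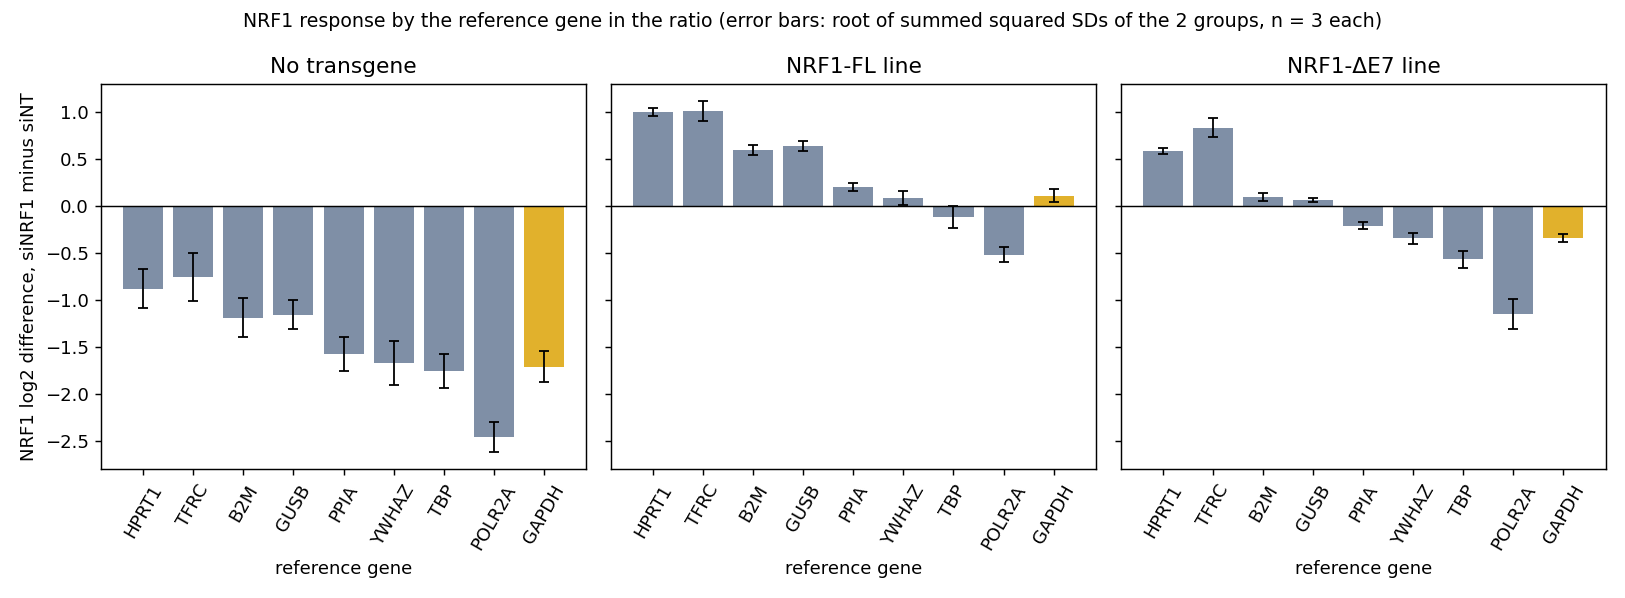
Log2 difference of NRF1 between siNRF1 and siNT when counts are divided by each reference gene (bars from 0, 8 genes in grey and GAPDH in yellow) in the 3 lines, with error bars that are the root of the summed squared SDs of both groups (n = 3 each). All bars are negative without a transgene, from -0.75 for TFRC to -2.46 for POLR2A, whereas bars of both signs appear in both rescue lines.

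In the NRF1-FL line, where gene counts sum endogenous and transgene NRF1, the log2 difference of NRF1 was 1.01 relative to TFRC and 1.00 relative to HPRT1, but -0.12 relative to TBP and -0.52 relative to POLR2A. GUSB gave 0.64, B2M 0.60, PPIA 0.21 and YWHAZ 0.08, and GAPDH gave 0.11 where TMM gave -0.13 ± 0.04 (adjusted p = 0.011). In the NRF1-ΔE7 line the range was from 0.83 with TFRC to -1.15 with POLR2A, and GAPDH gave -0.34. The sign was thus positive with 6 of the 8 references in the NRF1-FL line and with 4 of the 8 in the NRF1-ΔE7 line. With YWHAZ in the NRF1-FL line the siNRF1 and siNT ratios overlapped.

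The comparison of the isoforms under siNRF1 kept its direction with every reference gene, although its size varied. Among the genes assayed by qRT-PCR in the original work were the NRF1 targets PUDP, ANKRD26 and YEATS4. Relative to each of the 8 references their levels were lower with the ΔE7 isoform. PUDP, a pseudouridine phosphatase, gave log2 differences from -1.72 with B2M to -1.10 with TFRC, ANKRD26 from -1.75 with B2M to -1.13 with TFRC, and YEATS4, a reader of acylated histones, from -1.59 with B2M to -0.97 with TFRC. With GAPDH they were -1.53, -1.56 and -1.40, close to -1.53 ± 0.07, -1.56 ± 0.05 and -1.41 ± 0.05 by TMM. The TMM log2 fold-changes of siNRF1 over siNT were -1.87, -0.49 and -1.78 for PUDP. They were -1.64, -0.35 and -1.95 for ANKRD26 and -1.63, -0.27 and -1.57 for YEATS4.

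Of the reference genes themselves, 2 of the 8 differed between NRF1-ΔE7 and NRF1-FL under siNRF1, where 31.7% of all genes did. TFRC was lower with NRF1-ΔE7 (log2 fold-change -0.44 ± 0.04, adjusted p = 5.7e-09) and B2M higher (0.19 ± 0.03, adjusted p = 3.0e-05). Without siNRF1+NRF1-ΔE7 replicate 3 there were 4 such calls. Under siNT, 4 of the 8 differed between the lines (15.5% of all genes), all by less than 0.2. TFRC was lower by 0.14 (adjusted p = 0.0099) and GUSB by 0.10 (adjusted p = 0.029) with NRF1-ΔE7, while B2M was higher by 0.16 (adjusted p = 0.00036) and HPRT1 by 0.08 (adjusted p = 0.034). With 1 library left out 1 to 4 calls were left, with 1 without siNT+NRF1-ΔE7 replicate 1 and 2 without siNT+NRF1-ΔE7 replicate 3 or any one siNT+NRF1-FL library.

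Against cells without a transgene under siNT, GUSB alone differed in the NRF1-FL line, where it was higher by 0.22 ± 0.03 (adjusted p = 9.2e-05, 8.14% of all genes changed). In the NRF1-ΔE7 line 5 of the 8 differed (16.3% of all genes), with B2M higher by 0.20, GUSB by 0.12 and YWHAZ by 0.10 and with log2 fold-changes of -0.15 for TFRC and -0.12 for POLR2A (adjusted p from 2.1e-05 to 0.044). Without siNT replicate 2 there were 2 calls, and without siNT+NRF1-ΔE7 replicate 3 there were 3. HPRT1 was not called between either line and cells without a transgene under siNT (95% intervals -0.06 to 0.04 in the NRF1-FL line and 0.02 to 0.13 in the NRF1-ΔE7 line), in contrast to its shift under siNRF1.

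The siRNA response itself was compared between lines with an interaction term. Between the NRF1-FL line and cells without a transgene, 0 of the 8 responses differed by edgeR (5.33% of all genes did). At an unadjusted p under 0.05 there were 2, HPRT1 and POLR2A, and DESeq2 called 1, POLR2A (-0.18, adjusted p = 0.033). Between the NRF1-ΔE7 line and cells without a transgene 2 responses differed (2.03% of all genes), TFRC by -0.29 ± 0.05 (adjusted p = 0.0038) and HPRT1 by -0.17 ± 0.04 (adjusted p = 0.021). The HPRT1 call was lost under total-count, 26-gene and GAPDH scaling and without siNT replicate 3, siNRF1 replicate 3 or siNT+NRF1-ΔE7 replicate 1 (adjusted p from 0.055 to 0.34), and the TFRC call with GAPDH (adjusted p = 0.15). Between the 2 rescue lines TFRC differed by -0.30 ± 0.05 (adjusted p = 0.00041, 7.19% of all genes), and POLR2A was called as well by DESeq2 (0.17, adjusted p = 0.043). At an unadjusted p under 0.05 by edgeR, GUSB and POLR2A passed there besides TFRC. The responses of B2M and YWHAZ in the 3 lines lay within 0.25 of each other by the 95% intervals of these differences, as did those of PPIA and GUSB. Those of HPRT1 did so too with TMM, although the HPRT1 response was called between 2 of the sets. The 3 siRNA comparisons use separate libraries, and each interaction shares 2 groups with each of the others.

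Other genes of the same pathways were counted from fixed lists. Of 26 other qPCR reference genes, 16 were lower and 7 higher with siNRF1 without a transgene (against 32.4% and 32.1% of all genes, median log2 fold-change -0.16), 10 were flat (18.2% of all genes), and RPL19 (0.01), PGK1 (-0.03), CYC1 (-0.06) and EEF1A1 (0.06) had the smallest values. SDHA, a succinate dehydrogenase subunit also used as a reference, had -0.77, -0.01 and -0.85. CASC3, an exon junction component, had -0.76, -0.79 and -0.79, and MRPL19 had -0.76, -0.87 and -0.95. In the NRF1-FL line SDHA was near 0, while the NRF1 targets PUDP, ANKRD26 and YEATS4 had -0.49, -0.35 and -0.27. There HPRT1, TFRC, B2M and GUSB had log2 fold-changes between -1.14 and -0.73. The cause of these differences was not tested. Of 11 genes proposed as constant in RNA-Seq, 10 were lower and 0 higher without a transgene (against 32.4% and 32.1% of all genes), with RAB7A, a late endosome GTPase, at -1.52, C1orf43 at -1.19 and GPI at -0.71, and CHMP2A (0.06, adjusted p = 0.15) not passing. Its median was -0.36, and with library totals 8 were lower and 1 higher. With library totals the 26 reference genes divided into 11 lower and 9 higher, where all 17962 genes had 4336 lower and 7607 higher.

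The partners of the falling genes were counted in cells without a transgene, where 32.4% of all genes were lower and 32.1% higher. There 12 of 14 measured genes of the MHC class I pathway other than B2M were lower and 1 higher (against 32.4% and 32.1% of all genes), with the loading factor TAPBP at -1.18, the chaperone CANX at -0.81 and the trimming peptidase ERAP1 at 0.88. Of 16 other genes of purine salvage and synthesis, 11 were lower and 2 higher (against 32.4% and 32.1% of all genes), with the synthesis enzyme PFAS at -0.71 and the adenine salvage enzyme APRT at -0.65, while GMPS (0.02, adjusted p = 0.63) and PRPS1 (0.01, adjusted p = 0.72) did not pass. Of 13 other genes of iron handling 7 were lower and 2 higher (against 32.4% and 32.1% of all genes, and 4 lower and 5 higher with library totals), with the ferritin light chain FTL at -1.14, HFE, a regulator of iron uptake, at 0.65, and NCOA4, the receptor for ferritin turnover, at -0.38. The iron regulatory protein ACO1 had -0.17 and the iron importer SLC11A2 0.03 (adjusted p = 0.46). Of 20 other lysosomal genes, hydrolases apart from the membrane proteins LAMP1 (0.27) and LAMP2 (-0.30), 15 were lower and 2 higher (against 32.4% and 32.1% of all genes), with IDS at -1.09 and GLA at -0.79, and CTSA (0.05, adjusted p = 0.28) did not pass. With library totals the MHC class I counts were still 12 lower and 1 higher. There 9 and 5 purine genes, 4 and 5 iron genes and 13 and 4 lysosomal genes were lower and higher. The balance of the iron list thus turned, in a transcriptome that itself had 4336 of 17962 genes lower and 7607 higher with library totals.

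In the 14-3-3 family 5 of 6 other members were lower (against 32.4% and 32.1% of all genes, and 4 lower and 1 higher with library totals), from YWHAH at -2.33 and YWHAQ at -0.76 to YWHAG at -0.10, and YWHAB (0.02, adjusted p = 0.41) did not pass. Of 15 other cyclophilins 5 were lower and 8 higher (against 32.4% and 32.1% of all genes), with PPIC at -2.01, PPIB at -0.59 and PPIL6 at 1.63, and PPIF and PPIL2 both at 0.00 (3 lower and 10 higher with library totals). Library totals gave 4336 lower and 7607 higher among all 17962 genes.

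POLR2A was set beside the other subunits of its enzyme. Of 11 other RNA polymerase II subunits 4 were lower and 5 higher without a transgene (against 32.4% and 32.1% of all genes), none by more than 0.5 on the log2 scale, with POLR2K at 0.38, POLR2F at -0.48 and POLR2I at -0.35, and POLR2B (0.05, adjusted p = 0.13) and POLR2E (-0.01, adjusted p = 0.86) did not pass. Of 22 TFIID and other TBP partners 5 were lower and 9 higher (against 32.4% and 32.1% of all genes), with TAF13 at 0.71, BRF1 at 0.64, BTAF1 at 0.41 and TAF2 at -0.46, and TAF1, TAF5, TAF9 and TAF11 lay within 0.05 of 0. Of these 22, 12 were flat (18.2% of all genes). With library totals the subunits were 2 lower and 7 higher and the TBP partners 4 lower and 15 higher. All 17962 genes had 4336 lower and 7607 higher with that scaling.

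The genes whose profile over the 18 libraries was most like each reference gene were ranked by Pearson's r among 10415 genes of at least 10 CPM, as a description. HPRT1 was followed by CKAP4 (0.999), IARS and NOMO1 (0.998 each), TFRC by SLC39A6, LRRC58 and ZKSCAN8 (0.996 each), and B2M by DNAJA2 (0.996) and RNASEH2C (0.995). GUSB was followed by RPS6KB2 (0.992), URB1 and TSTA3 (0.990 each), PPIA by ATP5MC3 (0.996), RPS4X (0.995) and SNU13 (0.994), YWHAZ by ZMYND11 (0.983), CRYZL1 (0.982) and CFDP1 (0.981), and POLR2A by PROB1 (0.983), PTCH1 and C6orf89 (0.979 each). TBP, which varied least, had lower values, with CXXC1 at 0.834, PTRH2 at 0.804 and ATP5MC1 at 0.803. The points share the siRNA groups and libraries, so r here includes the shift between siNRF1 and siNT.

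For comparison, the 10 genes of at least 50 CPM with the smallest SD under TMM, RLE, upper-quartile and total-count scaling were DDX23, CTNNB1, UBE2L3, NUP205, NCBP1, SMARCC1, SLC25A3, MRPL45, PCBP2 and GATC, with a largest SD of log2 CPM from 0.0433 to 0.0536. They were chosen on these libraries, so their stability here is a description. TBP had a largest SD of 0.0835, YWHAZ 0.135, PPIA 0.192, POLR2A 0.335, B2M 0.387, GUSB 0.394, HPRT1 0.584 and TFRC 0.665, against 0.0793 for ACTB and 0.131 for GAPDH. The median over genes of at least 10 CPM was 0.173 under TMM, so TBP and YWHAZ lay below it and the other 6 above. Under TMM 94.6% of those genes varied less than HPRT1 and 96.1% less than TFRC.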

How the data were processed

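Poly(A) RNA-Seq libraries were compared, 3 for each of 6 conditions. According to the methods and the submitters' notes, Cutadapt 1.18 was used for trimming and STAR 2.7.0f for alignment (hg38, GENCODE v30). DESeq2 1.46.0 is named as well. The authors deposited estimated counts per gene, which were not normalized. For the assignment of reads to genes, strand included, the tool was not given in the sources used. Overlapping genes on opposite strands are therefore uncertain. A further 18 columns match no sample of this experiment and were not used.

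Counts were rounded to whole numbers and filtered with filterByExpr (minimum count 10). All 18 libraries were fitted together with a mean per condition in edgeR 4.0.16 (R 4.3.3, TMM, quasi-likelihood F test, 12 residual degrees of freedom), two-sided, with Benjamini-Hochberg adjustment over 17962 genes and calls at an adjusted p under 0.05. Log2 levels used a prior count of 0.5 only where profiles were correlated or SDs taken. Alternatives were RLE, upper-quartile, total-count, 26-gene and GAPDH scaling, other filters, a replicate block, DESeq2 1.42.0, fits of the compared libraries only, other flat ranges, and leaving out each library. The fit was tested on simulated data.

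Named genes were the 8 reference genes with their pseudogenes, NRF1, PUDP, ANKRD26, YEATS4, GAPDH, up to 4 genes of each list with the largest and 4 with the smallest absolute log2 fold-change without a transgene, the 10 most stable genes and the 3 most alike each reference gene, of which 1 is not reported here. The genes and lists were chosen with earlier results of these data known. Positions are from GENCODE v44. The siRNA sequence came from the study's oligo list. Sequences were read with Python 3.11.15 and pandas 2.3.3, and figures drawn with matplotlib 3.10.9.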

Additional observations from a re-analysis of the deposited data

Results flagged for a closer look

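The siRNA response of 2 reference genes differed between lines by the interaction test of edgeR. The TFRC response in the NRF1-ΔE7 line minus that in cells without a transgene was -0.289 on the log2 scale (adjusted p = 0.0038), and minus that in the NRF1-FL line it was -0.299 (adjusted p = 0.00041). The fall was the larger in the NRF1-ΔE7 line each time (log2 fold-change -1.44, against -1.15 without a transgene and -1.14 in the NRF1-FL line). The HPRT1 response in the NRF1-ΔE7 line minus that in cells without a transgene was -0.169 (adjusted p = 0.021), from log2 fold-changes of -1.20 and -1.03.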

How the results depend on the processing

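Of the fold-changes refitted with another setting, 359 kept direction and call, 19 lost the call and 12 changed sign. Those that changed sign were TBP and YWHAZ. TBP had 0.0634, 0.118, 0.123 and 0.229 in the NRF1-FL line and 0.0541, 0.114, 0.138 and 0.223 in the NRF1-ΔE7 line under upper-quartile, total-count, 26-gene and GAPDH scaling, and without a transgene 0.00385 (26 genes) and 0.0417 (GAPDH). YWHAZ had 0.0299 and 0.00131 in the rescue lines with GAPDH. With 1 library left out TBP ran from -0.0697 to 0.032 in the NRF1-FL line and from -0.0804 to 0.00748 in the NRF1-ΔE7 line. The cause was not tested for any of these. The number of flat reference genes was 2, 2 and 2 in cells with no transgene, NRF1-FL and NRF1-ΔE7 under upper-quartile and total-count scaling, 3, 3 and 2 with the 26 genes, 3, 2 and 2 with GAPDH and 3, 4 and 3 with a range of 0.5. It was 0 to 1 without a transgene when 1 library was left out. Of all 17962 genes, 3224, 3277 and 2833 were flat under the upper quartile and 3077, 3109 and 2737 under library totals. The 26 genes gave 2894, 3042 and 2647, and GAPDH gave 2519, 2367 and 2171. For the range of 0.5 all genes were not counted. Between lines, GAPDH scaling left 2 of 4 calls for NRF1-ΔE7 against NRF1-FL under siNT, 3 of 5 for the NRF1-ΔE7 line against no transgene, and 0 of 2 for the interaction of that line with no transgene, which was 1 under total-count and 26-gene scaling. Among all 17962 genes GAPDH scaling gave 1391 lower and 825 higher, 1352 and 951, and 31 and 67 in the same order. With no filter there were 2 calls under siNT, 1 interaction of the NRF1-FL line with no transgene and 2 between the rescue lines. DESeq2 gave 1 and 2 of these, and a fit of the compared libraries gave 1 of the first. Leaving out 1 library gave 1 to 4 calls under siNT between the lines, 2 to 5 for the NRF1-ΔE7 line against no transgene, 2 to 4 under siNRF1, 1 to 2 for each interaction with NRF1-ΔE7, and 2 to 4 pairs. The span of the NRF1 log2 difference over the 8 references was 1.70, and 1.64 to 1.74 with 1 library left out.

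The labels share replicate numbers without saying whether they mark a batch. Within a line, the deviations of same-numbered siNRF1 and siNT libraries from their group means had correlations of both signs, from -0.266 to 0.269. By these deviations, 10 of 18 libraries had their own number on the library of another condition most like them. How many would match if the numbers were unrelated was not computed, and whether the numbers mark a batch was not tested. With the replicate block the counts of called genes stayed within 1.5 times of those given, for example 8, 7 and 7 under siNRF1. The lowest count of any of the 8 genes in a library was 989 (TBP), and no alternative depth was run.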
